A study of Mus musculus with 24 samples.

Results

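The miRNA family of miR-148a, miR-148b and miR-152 (mir-148a, mir-148b and mir-152 in the small RNA count table) has 3 of the 510 miRNAs listed in that table. The choice was made with earlier results of these data known, and its members were taken by name. Their levels were measured in mammary tissue of female mice. The tumor libraries came from MMTV-PyMT mice on the FVB background, which are heterozygous for a transgene of the polyoma middle T oncoprotein under the MMTV promoter and enhancer, active in the mammary epithelium. The normal libraries came from mammary glands of FVB mice of the same ages without the transgene. At each of weeks 6, 8, 10 and 12, labelled hyperplasia, adenoma/MIN, early carcinoma and late carcinoma in the transgenic mice, 3 tumor and 3 normal libraries were sequenced, each from its own mouse. All PyMT stages are called tumor here, although the labels name the tissue of week 6 a hyperplastic gland. All 24 libraries had counts of all 3 members, and all 3 passed the filter on low counts, which kept 237 miRNAs.

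A miRNA guides silencing proteins to messenger RNAs that pair with its seed, the bases 2 to 8 counted from the 5′ end, and such messenger RNAs are translated less or degraded. miRNAs with the same seed share most of their predicted targets and are grouped as a family. The family is known for targeting DNA methyltransferases, and miR-148a is known as a miRNA of differentiated secretory epithelium and one of the most abundant miRNAs of milk. The mammary gland is a branched epithelium embedded in fat, blood vessels and connective tissue, so a library of whole tissue holds the miRNAs of all these cells.

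The mature sequences of the 3′ arm, the dominant arm of this family, are shown because they set what the counts can separate. They are those of RefSeq for GRCm38.p6, written 5′ to 3′, with the seed in capitals.
miR-148a-3p: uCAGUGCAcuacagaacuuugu
miR-148b-3p: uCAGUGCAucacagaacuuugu
miR-152-3p: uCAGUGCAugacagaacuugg
The 3 share the seed, and no other of the 1738 mature mouse miRNAs in the RefSeq table holds it. With positions counted from 1 at the 5′ end, miR-148a-3p and miR-148b-3p differ at 2 of 22 positions, C9U and U10C. miR-148a-3p differs from miR-152-3p at 3 of the 21 positions they share, C9U, U10G and U20G. miR-148b-3p and miR-152-3p differ at 2 of 21 positions, C10G and U20G. The number of mismatches allowed in the alignment is not given in the sources used here, so some reads of 1 member, above all of the far more counted miR-148a, could have been counted on another.

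The opposite strand of each hairpin, the 5′ arm, carries another seed, shared by miR-148a and miR-148b but not by miR-152.
miR-148a-5p: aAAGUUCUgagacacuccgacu
miR-148b-5p: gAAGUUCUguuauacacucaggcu
miR-152-5p: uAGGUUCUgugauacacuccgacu
The table has 1 row for each miRNA name, without the arm. The arms could therefore not be told apart, and the values below may hold reads of both. In the mm9 assembly, the build in the library labels, the hairpins lie on 3 chromosomes. Mir148a, at chr6:51219811-51219909 on the minus strand, lies in no annotated host gene. Mir148b, at chr15:103115556-103115652 on the plus strand, lies in an intron of Copz1. Mir152, at chr11:96711707-96711779 on the plus strand, lies in an intron of Copz2. Copz1 and Copz2 are paralogs that encode the zeta subunits of the coatomer, the coat of Golgi vesicles.

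Total counts ranged from 1032241 to 2213972 in tumor and from 1626022 to 3931375 in normal libraries. A floor of 3 counts corresponded to between 0.763 and 2.91 CPM, which is the count scaled to the library size, and no member came near it, with 135447 to 686541 counts of miR-148a, 4328 to 12045 of miR-148b and 520 to 3341 of miR-152 per library. The widest 95% Wilson intervals of a member's share of a library were ± 0.0962 percentage points for miR-148a, ± 0.0154 for miR-148b and ± 0.00474 for miR-152. Intervals and floors cover counting error only, since amplified reads are not independent molecules, and the number of mice, 3 a group, limits the precision further.

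The family took up 7.25% to 12.2% of all miRNA counts in normal libraries and 30.0% to 46.7% in tumor libraries, and nearly all of it was miR-148a. In the normal glands of week 6, miR-148a held 6.95%, 10.6% and 9.82% of the counts in replicates 1, 2 and 3. The tumors of that week held 32.7%, 30.3% and 30.9%. Already in hyperplasia, each tumor library had more than any normal library, with means of 31.3% ± 1.23 (SD, n = 3) against 9.11% ± 1.91. At week 8 the shares were 9.23%, 10.8% and 9.36% in normal glands and 34.3%, 46.0% and 29.8% in tumors. The value of 46.0%, the highest of all libraries, belonged to replicate 2, the library with the fewest counts. At week 10 normal glands had 11.2%, 9.01% and 11.8% and tumors 34.1%, 30.7% and 35.5%. At week 12 normal glands had 9.19%, 8.48% and 12.0% and tumors 29.5%, 32.1% and 38.5%. The groups thus did not overlap at any week, and the lowest tumor library of all weeks, at 29.5%, was above the highest normal library, at 12.0%. In normalised levels, 34.2%, 32.1%, 36.3% and 33.3% of the 237 miRNAs were likewise higher in each tumor than in each normal library at weeks 6, 8, 10 and 12.

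**Figure D1:**
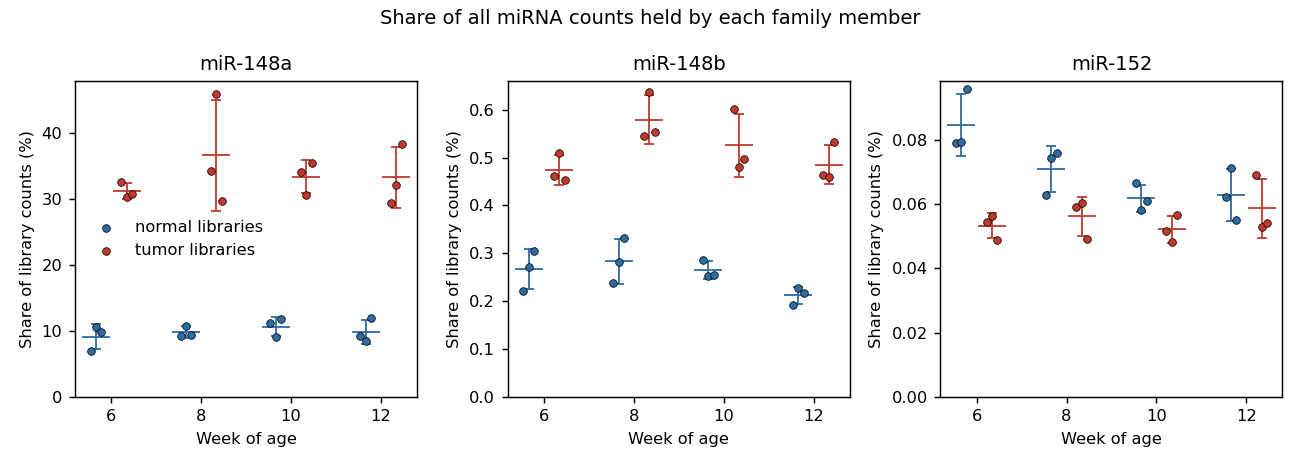
Share of all miRNA counts (%, vertical axes from 0) held by miR-148a, miR-148b and miR-152 in each library by week of age, with normal libraries in blue and tumor libraries in red. Horizontal marks are group means and bars are SDs of 3 libraries. miR-148a lies between 29.5% and 46.0% in tumors and between 6.95% and 12.0% in normal glands, while the groups of miR-152 lie close together.

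miR-148a was the most counted miRNA in 12 of 12 tumor libraries, with 2.72 to 8.37 times the counts of the next, which was miR-143 in 9 libraries and miR-92a in 3. It ranked 3 or 4 in normal libraries, where the most counted miRNA was miR-143, known from smooth muscle and stromal cells, and where miR-148a had 0.365 to 0.640 times its counts. miR-148b ranked between 40 and 50 in normal and between 25 and 36 in tumor libraries. miR-152 ranked between 71 and 81 in normal and between 78 and 88 in tumor libraries. Within the family, the share of miR-148a was 95.8% to 97.8% in normal glands and 98.0% to 98.5% in tumors. That of miR-152 was 0.449% to 1.09% in normal glands and 0.129% to 0.230% in tumors.

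A share depends on the other miRNAs of the library, so levels were next compared as CPM after TMM normalization, a scaling that assumes that most miRNAs do not change. Tumor was then compared with normal at each week by edgeR's quasi-likelihood test and Benjamini-Hochberg adjustment over all 237 miRNAs. In the fit of all 24 libraries, described below, 85.7% of these had an edgeR adjusted p under 0.05 in either direction. The assumption was therefore not met in that fit, and levels are relative to the scaling. Each mouse gave 1 library, so the p-values measure the spread between mice. In whole tissue, a different number of cells of a type and a different amount of RNA per cell cannot be told apart.

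miR-148a was over-expressed in tumor at all 4 time points. At week 6 its normalised read count was 63991, 94383 and 88778 CPM in normal glands and 342218, 295514 and 301586 CPM in tumors. At week 8 it was 97031, 95864 and 87345 CPM in normal glands and 353951, 558418 and 288023 CPM in tumors. Every tumor library lay above every normal library, and the tumors of week 8 were the most spread group. At week 10 it was 112702, 83178 and 116903 CPM in normal glands and 325726, 301611 and 371055 CPM in tumors. At week 12 it was 108696, 80019 and 148912 CPM in normal glands and 255927, 350044 and 415404 CPM in tumors. At both of these weeks the groups were again apart, and the narrowest gap, at week 12, lay between a normal library at 148912 CPM and a tumor library at 255927 CPM. The log2 fold change was 1.93 (SE 0.19, edgeR with Benjamini-Hochberg adjusted p = 5.035e-04) at week 6 and 2.06 (SE 0.32, edgeR adjusted p = 0.00327) at week 8. It was 1.67 (SE 0.16, edgeR adjusted p = 2.513e-04) at week 10 and 1.57 (SE 0.35, edgeR adjusted p = 0.00901) at week 12. Of all tested miRNAs, 29.1%, 21.9%, 32.9% and 29.1% were higher in tumor past the threshold at weeks 6, 8, 10 and 12. With the replicate number as a block, the miRNAs past the threshold in either direction at week 8 numbered 131 in place of 84, and miR-148a and miR-148b passed at all 4 weeks. By size of change, miR-148a was number 16, 19, 30 and 37 from the top among the 237 at the same weeks. The mean over the weeks corresponded to 3.54 times the normal level. The value at week 8 was 1.78 (SE 0.17, edgeR adjusted p = 0.00126) without the tumor library at 558418 CPM.

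**Figure D2:**
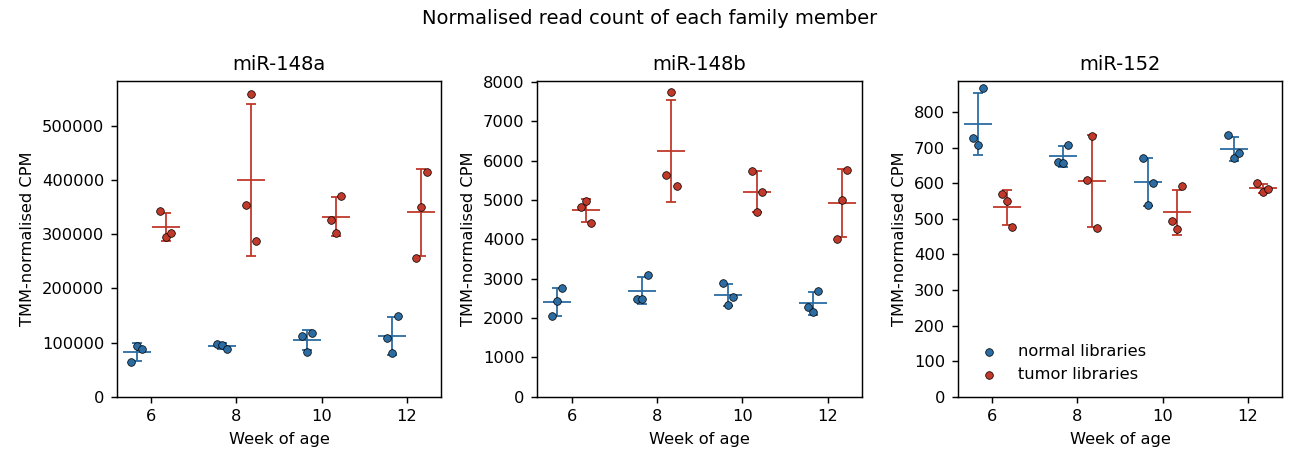
TMM-normalised CPM (vertical axes from 0) of miR-148a, miR-148b and miR-152 in each library by week of age, with normal libraries in blue and tumor libraries in red. Horizontal marks are means and bars SDs of 3 libraries. Tumors lie above normal glands for miR-148a and miR-148b at each week, and for miR-152 the groups overlap at weeks 8 and 10 and tumors are lower at weeks 6 and 12.

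miR-148b was over-expressed in tumor at the same 4 time points, by about the amount of 1 doubling. At week 6 it was at 2045, 2430 and 2755 CPM in normal glands and 4827, 4973 and 4416 CPM in tumors. At week 8 it was at 2493, 2493 and 3093 CPM in normal glands and 5633, 7737 and 5355 CPM in tumors. The tumor library with the most miR-148a also had the most miR-148b. At week 10 normal glands had 2885, 2326 and 2522 CPM and tumors 5747, 4706 and 5190 CPM. At week 12 normal glands had 2279, 2146 and 2697 CPM and tumors 4016, 5007 and 5750 CPM. The 2 tissues did not overlap at any week. The log2 fold changes were 0.98 (SE 0.15), 1.18 (SE 0.22), 1.01 (SE 0.14) and 1.04 (SE 0.23) at weeks 6, 8, 10 and 12. Their adjusted p-values in edgeR with Benjamini-Hochberg adjustment were 0.00269, 0.00705, 0.00123 and 0.00832. Over the weeks, the mean was 2.09 times the normal level. Taking all weeks together, every tumor library was above every normal library for miR-148a and for miR-148b, which held in this direction for 18.6% of tested miRNAs.

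miR-152 was not over-expressed in tumor at any time point, and was lower past the threshold at week 6 alone. At week 6 it was at 728, 707 and 866 CPM in normal glands and 571, 549 and 477 CPM in tumors. At week 8 it was at 659, 658 and 708 CPM in normal glands and 609, 732 and 474 CPM in tumors. The groups of week 6 were apart and those of week 8 overlapped, with the highest and the lowest value both in tumors. At week 10 normal glands had 671, 538 and 601 CPM and tumors 494, 472 and 591 CPM, which overlapped. At week 12 normal glands had 735, 672 and 684 CPM and tumors 600, 575 and 583 CPM, with tumors lower. Of all tested miRNAs, 34.6%, 19.8%, 31.6% and 28.7% had tumors below normal glands without overlap at weeks 6, 8, 10 and 12. Which weeks overlapped depended on the scaling. As shares of all counts, tumors were below normal glands without overlap at weeks 6, 8 and 10, and the groups overlapped at week 12. At week 6 the log2 fold change was −0.53 (SE 0.17, edgeR with Benjamini-Hochberg adjusted p = 0.0317), a decrease that 29.5% of tested miRNAs also passed at that week. The call ended when any of 5 of the 6 libraries was left out, and also with scaling without miR-148a, without a filter on low counts and with the replicate number as a block (log2 fold change −0.52, edgeR adjusted p = 0.0956). It held under 6 other settings, among them scaling by DESeq2 size factors and by library sizes only. At weeks 8, 10 and 12 the log2 fold change was −0.19 (95% CI −0.75 to 0.37), −0.23 (−0.59 to 0.14) and −0.26 (−0.69 to 0.17). None of these passed the threshold, with edgeR adjusted p = 0.517, 0.229 and 0.277, while 13.5%, 27.4% and 21.5% of tested miRNAs were lower past it.

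The mean of the 4 weekly log2 fold changes, from a fit of all 24 libraries, was 1.82 (95% CI 1.55 to 2.09) for miR-148a and 1.06 (0.89 to 1.24) for miR-148b. For miR-152 it was −0.29 (−0.45 to −0.13). The edgeR adjusted p-values were 2.17e-10, 1.235e-09 and 0.00220. In this fit 38.8% of tested miRNAs were higher and 46.8% lower in tumor, so that passing the threshold did not set the 3 members apart from other miRNAs. The median over all tested miRNAs was −0.15, and the value of miR-152 lay close to it.

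**Figure D3:**
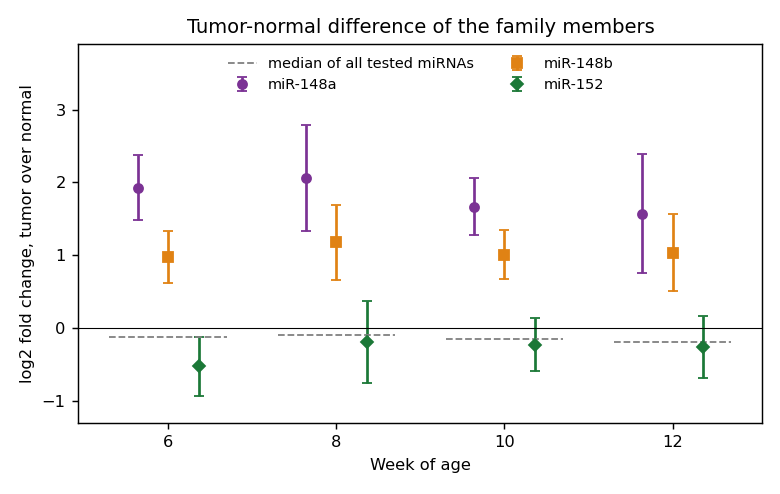
Weekly log2 fold change of tumor over normal for miR-148a, miR-148b and miR-152 by week of age, with 95% confidence intervals from edgeR and, as dashed lines, the median of all 237 tested miRNAs. miR-148a lies at 1.57 to 2.06 and miR-148b at 0.98 to 1.18, and the intervals of miR-152 reach across 0 at weeks 8, 10 and 12.

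The share of miR-152 was also computed without miR-148a in the denominator. As a share of all counts, miR-152 was 0.0550% to 0.0958% in normal glands and 0.0481% to 0.0691% in tumors. As a share of the counts other than miR-148a, it was 0.0625% to 0.106% in normal glands and 0.0694% to 0.112% in tumors. The log2 difference in share was −0.34 with miR-148a in the denominator and 0.11 without it, so the direction of the share turned with the denominator. The normalised level did not turn, since scaling without miR-148a gave a mean log2 fold change over the weeks of −0.34 (edgeR adjusted p = 0.00128) against −0.29 with TMM on all counts. For the share of miR-148b the log2 difference was 1.02 and 1.46, higher in tumor either way.

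The ratio of 2 members within a library needs no scaling and asks whether the members changed by different amounts. The counts of miR-148a were 28.2 to 55.2 times those of miR-148b in normal glands and 53.8 to 72.2 times in tumors. They were 88.0 to 218 times those of miR-152 in normal glands and 427 to 762 times in tumors. miR-148b had 2.81 to 4.37 times the counts of miR-152 in normal glands and 6.70 to 11.6 times in tumors. Within each week, no tumor library overlapped a normal library in any of the 3 ratios. The mean log2 difference between tumor and normal was 0.76 for miR-148a to miR-148b, 2.12 for miR-148a to miR-152 and 1.36 for miR-148b to miR-152. Each had p = 1.25e-05 in a two-sided exact permutation test within weeks, the smallest that the 160000 assignments can give, and the same after adjustment over the 3 ratios. The members therefore differed in their tumor-normal difference, in the order miR-148a, miR-148b, miR-152. Ratios between other miRNAs were not computed. As 85.7% of tested miRNAs passed the threshold in the mean over weeks, many other ratios may separate as well.

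**Figure D4:**
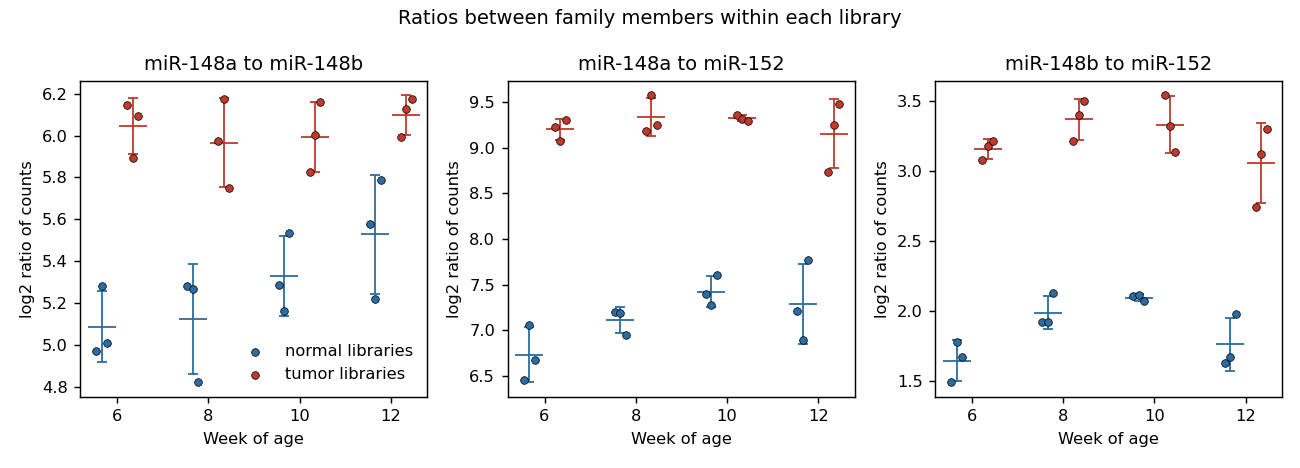
log2 ratio of the counts of 2 family members within each library by week of age, with normal libraries in blue and tumor libraries in red. Horizontal marks are means and bars SDs of 3 libraries, and the axes do not start at 0. Tumor and normal libraries are apart in each panel at each week.

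The log2 difference in the ratio of miR-148a to miR-148b was 0.96, 0.84, 0.67 and 0.57 at weeks 6, 8, 10 and 12. The mean log2 ratio of normal glands was 5.09, 5.12, 5.33 and 5.53 at these weeks, and that of tumors 6.05, 5.97, 6.00 and 6.10. Within normal glands the SDs were 0.17 to 0.29, and a change of the ratio with the week was not tested.

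Whether the tumor-normal difference of a member varied between stages was tested with interaction contrasts in edgeR over all 24 libraries. The Benjamini-Hochberg adjusted p in edgeR was 0.938 for miR-148a, 0.971 for miR-148b and 0.938 for miR-152. No miRNA of the 237 passed this test in edgeR or in DESeq2, and 9 (3.8%) had an unadjusted p under 0.05 in edgeR, against 0.0% past the threshold. From week 6 to week 12 the log2 fold change moved by −0.33 (95% CI −1.07 to 0.41) for miR-148a, 0.08 (−0.42 to 0.58) for miR-148b and 0.28 (−0.18 to 0.74) for miR-152. None of the 3 passed the threshold, with edgeR adjusted p = 0.574, 0.837 and 0.464, and 0.422% of tested miRNAs did. The intervals leave room for a change of up to about 1 log2 unit in miR-148a.

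Within each tissue the levels were also compared between weeks. In normal glands the mean of miR-148a was 82384, 93414, 104261 and 112542 CPM at weeks 6, 8, 10 and 12. In tumors it was 313106, 400131, 332797 and 340458 CPM. From low to high, the order was thus the 4 normal groups by age, then the tumors of weeks 6, 10, 12 and 8. The highest normal and the lowest tumor group, next to each other in this order, did not overlap. Neighbours within a tissue overlapped in every case. The weeks of a tissue were tested together, with no contrast for each neighbouring pair, and did not pass the threshold in normal glands (edgeR adjusted p = 0.633) or in tumors (edgeR adjusted p = 0.880). In normal glands, week 12 against week 6 gave a log2 fold change of 0.45 (SE 0.25, edgeR adjusted p = 0.224). Without replicate 2 of the normal glands of week 12 it was 0.88 (edgeR adjusted p = 0.0167), past the threshold. Without replicate 3 of the same group it was 0.23 (edgeR adjusted p = 0.689), and it passed with no other library left out. Of all tested miRNAs, 21.1% passed this contrast in normal glands and 7.59% in tumors, where miR-148a was at 0.12 (SE 0.25, edgeR adjusted p = 0.780).

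miR-148b means by week were 2410, 2693, 2578 and 2374 CPM in normal glands and 4739, 6242, 5215 and 4924 CPM in tumors. Differences between weeks gave edgeR adjusted p = 0.873 in normal glands and 0.423 in tumors. For miR-152 the means were 767, 675, 603 and 697 CPM in normal glands and 532, 605, 519 and 586 CPM in tumors. Here edgeR gave adjusted p = 0.491 in normal glands and 0.847 in tumors. Of all tested miRNAs, 13.9% differed between weeks in normal glands and 0.0% in tumors, where DESeq2 called 10 miRNAs and 39 (16.5%) had an unadjusted p under 0.05 in edgeR.

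Many miRNAs known to mark cell types also differed between tumor and normal libraries. The shares of all tested miRNAs to read these counts against are the 21.9% to 32.9% higher and 13.5% to 29.5% lower in tumor at a week. Of 11 epithelial miRNAs, 9 were over-expressed in tumor at every week, with a weekly median log2 fold change of 1.79 to 2.22, and their summed share of counts was 1.24% to 3.25% in normal glands and 5.72% to 8.42% in tumors. The most counted was miR-182, with log2 fold changes of 1.79 to 2.21. All 7 miRNAs of stroma and smooth muscle were under-expressed in tumor at every week, with summed shares of 30.3% to 42.4% in normal glands and 7.56% to 19.4% in tumors. The most counted of these was miR-143, with log2 fold changes of −0.77 to −1.47. The endothelial miR-126 was lower at each week, by 0.67 to 1.57 on the log2 scale. Of the other 2 epithelial miRNAs, miR-205 did not pass the threshold at any week and miR-203 fell at week 12. Whether the cell makeup differed, and its part in the results for the family, was not tested.

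Other marker lists were mixed or small. Of 3 tested skeletal muscle miRNAs, 1 fell at week 8 (miR-133a) and 3 at week 12 (miR-1, miR-133a and miR-133b), and their summed share reached 9.50% in a normal library and 1.73% in a tumor library. Of 3 erythroid miRNAs, 1 fell at weeks 6 and 10 (miR-451) and 3 at week 12 (miR-144, miR-451 and miR-486). Of 3 tested leukocyte miRNAs, 1 fell at each week (miR-150), while the most counted, miR-142, had log2 fold changes of −0.02 to −0.29 and miR-223 was at 0. Of 3 adipocyte miRNAs, 1 rose at week 6 (miR-193b), none passed the threshold at week 8 and 1 fell at weeks 10 and 12 (miR-378).

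**Figure D5:**
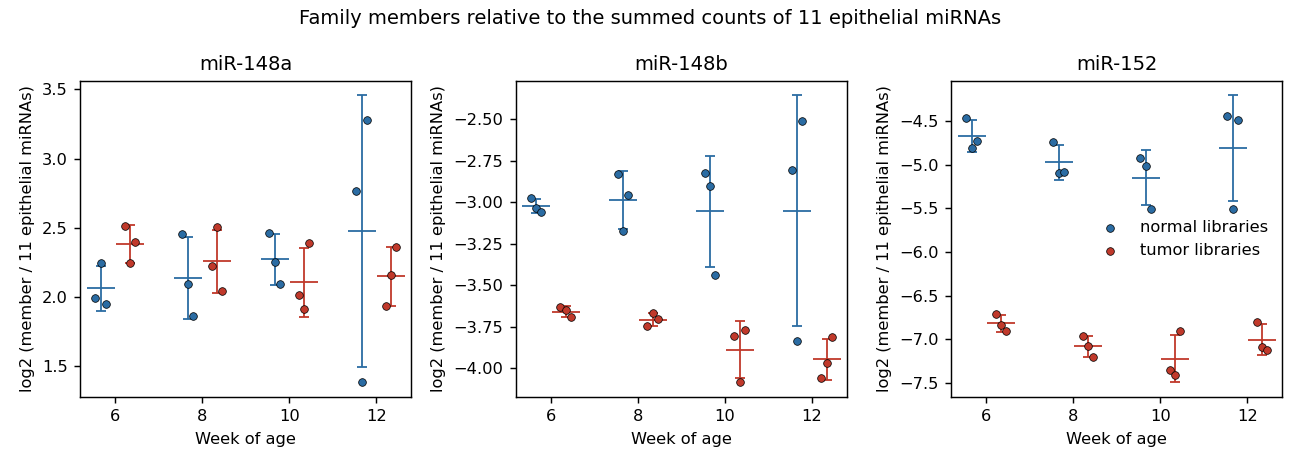
log2 ratio of each family member to the summed counts of 11 epithelial miRNAs in each library by week of age, with normal libraries in blue and tumor libraries in red. Horizontal marks are means and bars SDs of 3 libraries, and the axes do not start at 0. The groups overlap at each week for miR-148a and are apart at each week for miR-152.

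Set against the summed counts of the epithelial miRNAs in the same library, miR-148a was 2.61 to 9.69 times as counted in normal glands and 3.77 to 5.71 times in tumors. The log2 difference between tumor and normal was 0.32, 0.12, −0.17 and −0.32 at weeks 6, 8, 10 and 12, and the groups overlapped at each. The 3 normal libraries of week 12 ranged over the whole of 2.61 to 9.69. Against the 5 miRNAs of the miR-200 family alone the differences were −0.25, −0.32, −0.70 and −1.10, and tumors lay below normal glands without overlap at weeks 6 and 10. miR-148b was lower in tumor relative to the epithelial list, with log2 differences of −0.64, −0.72, −0.83 and −0.90 and an overlap at week 12. For miR-152 they were −2.15, −2.10, −2.07 and −2.19, with no overlap at any week. These ratios are descriptions. The summed list was itself higher in tumor, so the ratio falls for any miRNA that rose less than the list. How many of the other tested miRNAs overlap relative to the list was not counted.

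Other miRNAs of related function were read from lists. Of 12 miRNAs known to be abundant in milk, 6, 5, 6 and 5 were over-expressed and 2 under-expressed at each of weeks 6, 8, 10 and 12, and the median log2 fold change was 0.33 to 0.48. The number lower was near or below the 13.5% to 29.5% of all tested miRNAs, and the number higher was above their 21.9% to 32.9%. Those over-expressed at every week were miR-141, miR-146b, miR-200a, miR-200c and miR-27b, joined by miR-30a at weeks 6 and 10. Those under-expressed were miR-22 at every week, let-7a at weeks 6, 8 and 10 and miR-26a at week 12. miR-26a, the most counted of the list, had log2 fold changes of −0.36 to −0.75. The milk list shares miR-200a, miR-200c and miR-141 with the epithelial list, and these were over-expressed at every week. The number higher thus rests in part on epithelial miRNAs and is not a result of the milk list alone. Apart from them, those higher were miR-146b and miR-27b, with miR-30a at weeks 6 and 10. miR-29a, miR-29b and miR-29c, which like the family are known to target DNA methyltransferases, went the other way from miR-148a and miR-148b. Of these 3, 1 was lower past the threshold at week 6 (miR-29c), 2 at week 8 (miR-29b and miR-29c) and 3 at weeks 10 and 12, with a median log2 fold change of −0.77 to −1.65.

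Across the 24 libraries, the tested miRNA most like miR-148a in log2 CPM was miR-92b, with Pearson r = 0.98, followed by miR-182 and miR-484 with 0.97 each. For miR-148b the first 3 were miR-148a with 0.97, miR-182 with 0.96 and the epithelial miR-200b with 0.95. For miR-152 the highest values were 0.71 with miR-1839, 0.68 with miR-194 and 0.65 with miR-22. After subtraction of the 8 group means, miR-148a and miR-148b still had r = 0.78. The r of miR-92b, miR-182 and miR-484 with miR-148a was then 0.70, 0.67 and 0.65, each below that of miR-148b. After the same subtraction miR-1839 had r = 0.46 with miR-152, and the highest for miR-152 was miR-582 with 0.75, whose r over all libraries was −0.34. Between miR-148a and miR-152 the value was −0.55 over all libraries and 0.55 after the subtraction, and between miR-148b and miR-152 it was −0.51 and 0.59. The points of these correlations share tissue, week and library scaling, and they are descriptions of these 24 libraries.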

How the data were processed

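Small RNA of snap-frozen mammary tissue was sequenced from 24 mice in 8 groups of 3. The authors removed barcode and adaptor, aligned reads in the size range of mature miRNAs with Bowtie, and deposited raw counts of reads overlapping a miRBase miRNA, without normalization. Labels name mm9, while the study's methods name mm10. Groups, weeks, lanes and replicate numbers came from the labels. Deviations of same-numbered tumor and normal libraries from their group means correlated with r of 0.20 to 0.82 at weeks 6, 8 and 10 and 0.0312 to 0.42 at week 12. The labels and methods state no pairing, and at each week a tumor and a normal library with the same number also shared a sequencing lane. What these correlations come from was not tested, and they do not establish a pairing. The main tests therefore set none, and the replicate block was an alternative setting.

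Shares are percentages of a library's total. Tumor and normal were compared in R 4.3.3 by edgeR 4.0.16 (filterByExpr over 8 groups, TMM, quasi-likelihood test, Benjamini-Hochberg adjustment over 237 miRNAs, threshold 0.05). Each week was fitted alone, and means over weeks, interactions and comparisons of weeks came from 1 fit of all libraries. A log2 CPM for correlations had a prior count of 2. Member ratios were tested by exact permutation within weeks. Python 3.11.15, numpy 2.4.6, scipy 1.17.1 and matplotlib 3.10.9 were used. On simulated data for the week 6 comparison, with 60 of 237 miRNAs changed, the test recovered 86.7% of changes of 2 log2 units and 43.3% of changes of 1, and 4.88% of calls were false.

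Other settings were scaling by DESeq2 size factors, by library sizes or without miR-148a, the test of DESeq2 1.42.0, a filter of at least 10 counts per library or none, a replicate block, lane as covariate, 1 fit of all libraries, and each library left out. The miRNAs named are the members, the 3 most correlated with each, the most counted of each library and of each marker list, and, chosen after their values were seen, those in small counts of a list. Members and lists were chosen with earlier results of these data known. No duplicate libraries were found.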

Additional observations from a re-analysis of the deposited data

How the results depend on the processing

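The calls of miR-148a and miR-148b at each week held under 9 alternatives and with each of 6 libraries left out, and the mean over weeks of each member held under 8 alternatives and with each of 24 libraries left out. The member ratios also held, with log2 differences of 0.66 to 0.85, 2.02 to 2.21 and 1.35 to 1.36 within lanes. The decrease of miR-152 at week 6 did not: its log2 fold change was −0.49 with scaling without miR-148a (edgeR adjusted p = 0.0637), −0.51 without a filter (0.0970) and −0.52 with the replicate number as a block (0.0956). With a library left out it ranged from −0.58 to −0.35, and only without normal replicate 1 did it stay past the threshold. At week 8 miR-152 ranged from −0.32 to 0.0265, reversed without tumor replicate 3. The cause was not tested.

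Some values near 0 changed sign, and others moved without a change of sign. For miR-148b, the change of the difference from week 6 to week 12 was −0.0229 with scaling without miR-148a and −0.16 to 0.27 with a library left out. Its week 12 against week 6 in normal glands was 0.0449 with DESeq2 size factors, 0.0447 with the DESeq2 test, 0.0899 with scaling without miR-148a and −0.13 to 0.28 with a library left out, and in tumors −0.0623 with at least 10 counts and −0.00834 to 0.26 with a library left out. In normal glands, with a library left out, the same contrast was 0.23 to 0.88 for miR-148a, which kept its sign. For miR-152 it was −0.18 to 0.12. Without miR-148a in the denominator, the share of miR-152 differed by 0.11, a change of sign, and that of miR-148b by 1.46, with its sign kept. Relative to the miR-200 family, miR-148a differed by −0.59. Against TMM, library sizes only moved the median of all miRNAs by −0.14 at week 6, −0.13 at week 8 and 0.18 at week 12.

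Same-numbered tumor and normal libraries deviated together, with r above 0.1 in each pair of weeks 6, 8 and 10 but in only 1 of the 3 pairs of week 12. The block gave 131 calls at week 8 against 84, and ended only the call of miR-152 at week 6 among the members. Counts of calls also moved from 33 to 18 between weeks in normal glands and from 50 to 28 for week 12 against week 6 there, both with at least 10 counts, and in tumors from 18 to 30 with DESeq2 and to 10 without a filter. Between weeks in tumors there were 0 calls, 3 with DESeq2 size factors, 10 with DESeq2 and 3 with at least 10 counts. For the change from week 6 to week 12 there was 1 call, and 0 to 3 under the alternatives. With a library left out, the calls ranged from 78 to 150 at week 6 (139 with all), 50 to 81 at week 8, 103 to 144 at week 10 (143 with all) and 74 to 120 at week 12 (120 with all). They ranged from 11 to 60 between weeks and from 32 to 76 for week 12 against week 6 in normal glands, and from 0 to 10 and 0 to 19 in tumors. With 3 mice a group, differences of 1 log2 unit were often missed in the simulation of week 6, with 43.3% recovered. Of differences of 2 log2 units 86.7% were recovered, so some of that size could be missed too. In a simulation of the change from week 6 to week 12, 36.7% of changes of 1 log2 unit were recovered. The changed miRNAs were drawn at random from all tested, so these rates are not those of the members.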
